A study of Homo sapiens with 79 samples.

Results

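The transcripts of 10 snoRNA host genes were followed through 24 formaldehyde RNA immunoprecipitations (fRIPs) of K562 cells. They were SNHG1, SNHG3, SNHG5, SNHG6, SNHG7, SNHG8, SNHG12, SNHG15, SNHG16 and GAS5, chosen by gene symbol, that is 10 of 48453 genes in the gene table and 113 of 185661 rows of the isoform table. K562 is an established human leukemia line of erythroid character. In fRIP, cells are lightly crosslinked with formaldehyde, the lysate is sonicated, 1 protein is precipitated with an antibody, and the RNA that comes with it is sequenced after removal of ribosomal RNA. In all, 22 proteins had 3 replicate libraries, EZH2 and STAG2 had 2, and 9 libraries came from input lysate, in 3 sets. The sources name no genetic change or treatment made for the study beyond the crosslinking that all libraries shared. The targets included the RNA-binding proteins PABP, HUR, IMP1, HNRNPH1, HNRNPU and ADAR. Chromatin proteins made up most of the others, namely EZH2 and SUZ12 of PRC2, the remodellers CHD4, CHD1 and CHD7, the acetyltransferases PCAF and CBP, LSD1, HDAC1, PHF8, DNMT1, WDR5, RBBP5, CBX3 with its phosphorylated form phospho-CBX3, CTCF and STAG2, with the nucleoporin NUP98. A fRIP over input ratio is a ratio of shares of 2 libraries, and in bulk material fewer cells with an RNA and less of it per cell cannot be told apart.

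Small nucleolar RNAs (snoRNAs) guide the chemical modification of ribosomal RNA, box C/D snoRNAs for methylation of the ribose and box H/ACA snoRNAs for pseudouridine. In human cells most of them lie in introns of host genes and are trimmed out of the intron after splicing, so the snoRNA and the spliced host RNA come from the same precursor but part ways. Spliced noncoding hosts such as GAS5 are known to be exported, to be bound by ribosomes and to be degraded by nonsense-mediated decay, and many begin with the terminal oligopyrimidine (TOP) tract of messenger RNAs for the translation machinery.

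The 10 hosts differ in what their introns carry. In the RefSeq annotation, SNHG1 holds 8 named box C/D snoRNAs, SNHG5 holds 2, SNHG6 holds 1, SNHG16 holds 3 and GAS5 holds 10 with 1 box H/ACA snoRNA. SNHG3 and SNHG7 hold 2 box H/ACA snoRNAs each, SNHG8 and SNHG15 hold 1 each, and SNHG12 mixes 3 box H/ACA snoRNAs with 1 box C/D snoRNA. All 10 are classed as lncRNA genes. On GRCh37, the assembly of the files, the isoforms in the table span chr11:62619458-62623386 for SNHG1 and chr6:86370710-86388466 for SNHG5. They span chr17:74553848-74561430 for SNHG16 and chr1:173833037-173838020 for GAS5. Those of SNHG3 span chr1:28832492-28837404, those of SNHG7 chr9:139615818-139622636, those of SNHG8 chr4:119199858-119200982, those of SNHG15 chr7:45022618-45026560 and those of SNHG12 chr1:28905050-28909495.

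The intron cargo of 4 hosts could be read from GRCh37 with the annotation used here. It is shown because it shows both kinds of cargo side by side. Capitals mark an exact box C (TGATGA) where there is one near the 5' end, and the last exact box D (CTGA) or box ACA near the 3' end. Other CTGA matches are left in lower case. None of the 4 lies inside an exon of an isoform in the table.
SNORD1B, in SNHG16, chr17:74557191-74557274, plus strand: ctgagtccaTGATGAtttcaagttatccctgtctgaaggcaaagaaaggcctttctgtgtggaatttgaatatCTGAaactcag
SNORD78, in GAS5, chr1:173834760-173834824, minus strand: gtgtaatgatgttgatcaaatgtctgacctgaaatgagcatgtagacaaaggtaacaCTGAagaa
SNORD99, in SNHG12, chr1:28905261-28905334, minus strand: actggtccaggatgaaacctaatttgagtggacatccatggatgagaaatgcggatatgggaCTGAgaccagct
SNORA73B, in SNHG3, chr1:28835071-28835274, plus strand: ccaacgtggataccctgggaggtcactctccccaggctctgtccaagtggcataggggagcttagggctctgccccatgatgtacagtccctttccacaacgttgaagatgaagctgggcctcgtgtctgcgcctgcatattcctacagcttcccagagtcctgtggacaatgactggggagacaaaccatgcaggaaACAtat

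Gene starts were read from RefSeq on GRCh38.p14 for 8 of the 10 hosts, as 10 bases before and 20 from the start. They are shown because a TOP tract is a C at the first base followed by pyrimidines. With a C and at least 4 pyrimidines required on the transcribed strand at the annotated start, 2 of the 8 held one, SNHG5 and SNHG12, against 4.07% of all starts in the RefSeq table. Capitals mark the pyrimidine run from the first base, which was 3 bases in SNHG1. No match here says only that these letters do not stand at this annotated base.
SNHG5, chr6:85678733, minus strand: gcacttcggtCTTTTacgtcggccttcgcg
SNHG12, chr1:28581873, minus strand: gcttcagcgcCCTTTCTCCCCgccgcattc
SNHG1, chr11:62855885, minus strand: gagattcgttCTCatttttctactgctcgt

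The values were FPKM, fragment counts scaled by transcript length and library size, so levels can be compared between genes. Depth was estimated from the step that 1 fragment adds to genes with a single isoform. It ran from 1996300 to 60745000 fragments per library with a median of 15303000, and the 3 ADAR libraries, at 1996300 to 2383500, were the shallowest. The next shallowest library held 5211500 and the inputs 12306000 to 31483000. Of 5 genes that mark K562 cells, all passed the filter, with GATA1 at 82.2 ± 11.8 FPKM in input (SD, n = 9) and HBG2 at 866 ± 269. Of 5 genes of other cell types, 2 passed it. By the test described below, 1 of the 2 was higher in each of ADAR, HNRNPH1, HNRNPU, HUR and PHF8. In input, ALB stood at 0.153 ± 0.145.

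The 10 hosts covered a wide range of levels in input. SNHG5 was the most abundant at 673 ± 151 FPKM (SD, n = 9), followed by GAS5 at 559 ± 80.6, SNHG3 at 455 ± 108 and SNHG1 at 338 ± 57.7. SNHG8 at 243 ± 58.9 and SNHG6 at 217 ± 32.4 formed a middle pair. SNHG12 at 64.8 ± 29.8, SNHG16 at 58.7 ± 7.14 and SNHG15 at 49.2 ± 6.37 lay below them and SNHG7 was last at 25.1 ± 6.49. In this order, the gap between neighbours was smaller than the larger of their SDs for SNHG5 and GAS5, GAS5 and SNHG3, SNHG8 and SNHG6, and SNHG12 and SNHG16, and exceeded both SDs for the other pairs.

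Each host was compared with input in each fRIP, 240 combinations in all. A combination was called higher or lower at a Benjamini-Hochberg adjusted p under 0.05 over the 25442 genes tested and a difference of more than 1 on the log2(FPKM + 1) scale, by limma. All 10 hosts passed the filter of at least 1 FPKM in at least 2 libraries. Of the 240, 30 were higher and 59 lower, where 6.9% of all gene and fRIP combinations were higher and 5.52% lower. In 84 of the 89 called combinations no library of the fRIP overlapped the 9 inputs. The call itself favours such separation, and the share among all called genes was not computed. All 24 comparisons share the 9 inputs, so they are not independent of each other. For counts by cargo, GAS5 was placed with the box C/D hosts in spite of its 1 box H/ACA snoRNA. The 5 box C/D hosts had 12 combinations higher and 37 lower of 120. The 4 box H/ACA hosts had 13 and 19 of 96, and SNHG12 5 and 3 of 24. NUP98, RBBP5 and WDR5 had no called host. The backgrounds were 0.263% of genes higher and 5.11% lower for NUP98, 2.28% and 0.731% for RBBP5, and 3.9% and 6.71% for WDR5. The 3 input sets differed for several hosts, so each protein was also compared with the single set that lay nearest to the input level listed for it in the deposited comparisons. That gave 29 higher and 53 lower, where 6.22% and 5.57% of all combinations were, with 75 of the 89 calls the same. With each library centred on its median, 29 were higher and 62 lower, where 7.04% and 6.58% of all combinations were.

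**Figure D1:**
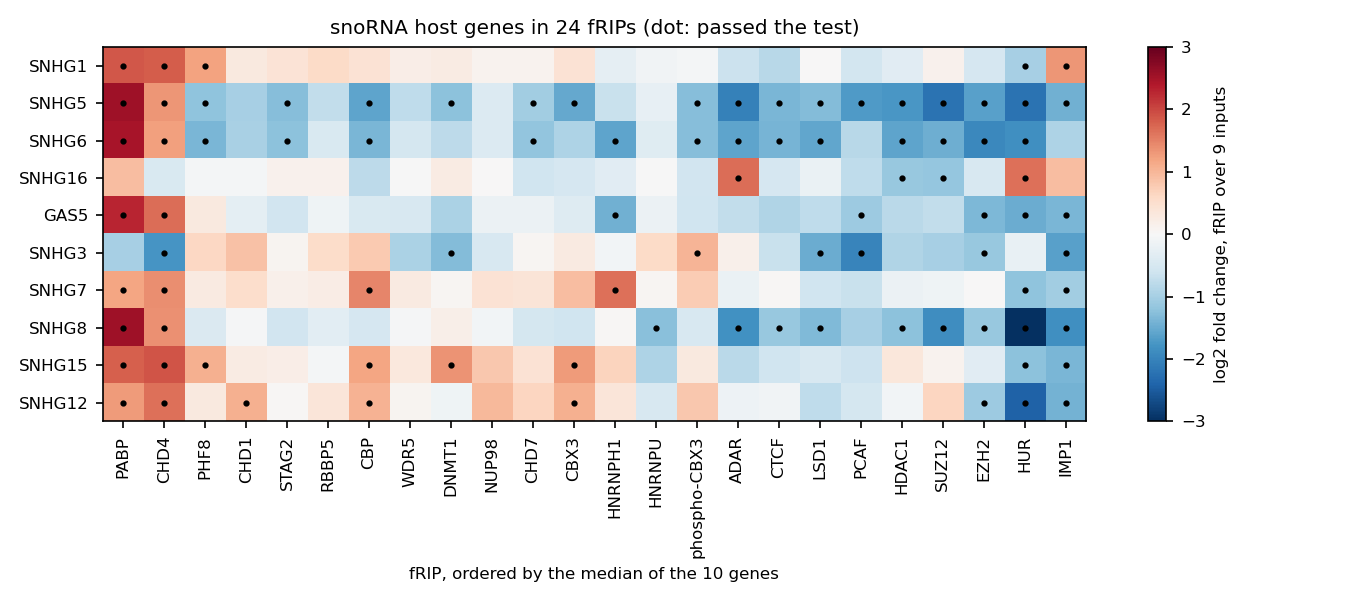
Log2 fold change of FPKM over the 9 inputs (colour) for 10 host genes (rows, box C/D hosts on top, then box H/ACA hosts and SNHG12) in 24 fRIPs (columns, ordered by the median of the 10). A dot marks a called combination. PABP and CHD4 hold 8 called higher hosts each, and HUR, near the right edge, holds 8 called lower hosts with SNHG16 higher.

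PABP, the poly(A) binding protein that coats the tails of mature messenger RNA, had the highest median over the hosts. Of the 10 hosts, 8 rose, by 2.28 to 5.87-fold, where 11.1% of all genes tested rose and 14.7% fell. The members' median log2 fold change was 1.83, against -0.15 over all genes. SNHG16 differed by 0.92 on the log2 scale, short of the fold threshold, and SNHG3 stood 1.99-fold under input, just short of it. Both depended on the setting, since SNHG3 was called lower against the matched input set, at -1.22, and SNHG16 was called higher after centring, at 1.41.

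CHD4, the chromatin remodelling subunit of the NuRD deacetylase complex, had 8 hosts higher as well, SNHG1, SNHG5, SNHG6, SNHG7, SNHG8, SNHG12, SNHG15 and GAS5. They rose by 2.35 to 3.70-fold in a fRIP where 2.91% of all genes rose and 9.79% fell, and the comparison shares its inputs with that of PABP. SNHG3 fell, with a log2 fold change of -1.77, and SNHG16 had -0.47. Of the 24 fRIPs these were the only ones with more than 3 hosts called higher.

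HUR, which binds U-rich and AU-rich stretches of messenger RNA, was near the opposite end. Of the 10 hosts, 8 fell, by 2.01 to 8.35-fold, where 6.93% of genes fell and 6.42% rose. SNHG16 rose by 3.13-fold in the same libraries and SNHG3 differed by -0.22 on the log2 scale. In the fRIP of IMP1, a messenger RNA binding protein of the cytoplasm also known as IGF2BP1, 7 hosts fell against a background of 10.5% of genes, and SNHG1 rose against a background of 4.23%. With each library centred on its median, 2 hosts instead of 7 were lower and 2 instead of 1 higher in the IMP1 fRIP, where the shares of all genes became 3.62% and 12.5%.

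In the chromatin-associated fRIPs other than CHD4 the hosts were mostly lower or not called. EZH2, the methyltransferase of PRC2, had 6 hosts lower against 9.13% of genes and 0 higher against 10.5%, and its partner SUZ12 had 4 lower against 8.6% and 0 higher against 15.3%. HDAC1 had 4 lower against 5.35% and 0 higher against 8.42%. LSD1, a histone demethylase, had 4 lower against 6.66% and 0 higher against 0.814%. PCAF had 3 lower against 8.54% and 0 higher against 0.515%. CTCF, the insulator protein, had 3 lower against 0.79% and 0 higher against 0.424%, so that its lower hosts came in a fRIP with few calls.

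CBP had 3 higher against 9.08% and 2 lower against 3.78%. PHF8 had 2 higher against 3.18% and 2 lower against 1.71%, and CBX3 had 2 higher against 7.45% and 1 lower against 3.65%. DNMT1 had 1 higher against 9.56% and 2 lower against 6.88%, and phospho-CBX3 had 1 higher against 2.58% and 2 lower against 2.91%. SNHG12 was the single host called in CHD1, higher against 0.424%, where 1% of genes were lower. CHD7 had 2 lower against 0.896% and 0 higher against 0.99%, and STAG2 had 2 lower against 3.36% and 0 higher against 0.979%. Among the other RNA-binding proteins, ADAR had 1 higher against 26.6% and 3 lower against 4.31%, HNRNPH1 had 1 higher against 24.5% and 2 lower against 7.9%, and HNRNPU had 0 higher against 13.1% and 1 lower against 2.52%.

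Several of these counts depended on the reference. Centring moved the share of all genes called as well. After it ADAR had 8 hosts lower against 35.2% of genes and 0 higher against 11.6%, and HNRNPH1 had 5 lower against 22.1% and 0 higher against 8.59%. HNRNPU had 3 lower against 13.7% and HDAC1 6 against 9.96%. EZH2 had 3 lower against 6.3%, LSD1 2 against 2.41%, PCAF 2 against 2.54%, and CBX3 2 against 5.4% with 1 higher against 5.4%. Both higher calls of PHF8, SNHG1 and SNHG15, were lost after centring, where 1.29% of genes were higher, and against the matched input set, where 3.97% were. Against the matched set both lower calls of STAG2 and of DNMT1 were lost, where 5.14% and 10% of genes were lower. LSD1 then had 2 lower against 10.5% and PCAF 5 against 6.32%. HNRNPU had SNHG3 higher (1.03) against 8.17%, and its lower call of SNHG8 was lost, where 0.963% were lower. Phospho-CBX3 then had 2 higher against 1.21%, with SNHG12 gained at 1.07, and 1 lower against 4.4%, with SNHG5 lost at -0.94. In CHD1 the SNHG12 call was lost both against the matched set, where 0.236% of genes were higher, and with pairing by replicate number, where 0.307% were. SNHG6 was called lower there in both, at -1.13 (limma, adjusted p = 3.55e-06 when paired), against 0.452% of genes in the matched set and 0.668% when paired. Both settings also called SNHG3 lower in WDR5, at -1.17, against 4.88% of genes in the matched set and 5.26% when paired. They called SNHG6 and SNHG8 lower in PCAF as well, SNHG8 at -1.22, where 6.69% of genes were lower when paired. NUP98 had 2 higher hosts after centring, SNHG12 and SNHG15, against 2.79% of genes.

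SNHG5 and SNHG6 accounted for 29 of the 59 lower calls between them. SNHG5, host of SNORD50A and SNORD50B, was lower in 16 fRIPs and higher in 2. Its input sets averaged 520, 656 and 843 FPKM, and against the matched set 12 fRIPs were lower, those of DNMT1, STAG2, phospho-CBX3 and LSD1 being lost. Its lowest, median and highest input libraries were at 475, 665 and 897 FPKM. The 3 PABP libraries stood at 3576, 3465 and 4672 FPKM, all above every input, a log2 fold change of 2.55 ± 0.18 (SE, adjusted p = 2.59e-18).
In the CHD4 libraries SNHG5 stood at 2329, 939 and 2048 FPKM, again above every input although the second library was less than the others, with a log2 fold change of 1.32 ± 0.18, which was 0.97 and not called against input set 3 alone. At the bottom, HUR libraries held 136, 121 and 169 FPKM (log2 fold change -2.22 ± 0.18) and SUZ12 libraries 134, 129 and 162 FPKM (-2.21 ± 0.18), none reaching the lowest input. The fRIP means of SNHG5 thus ran over a 27.6-fold range.

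SNHG6, host of SNORD87 at chr8:67834053-67838633 (GRCh37), followed SNHG5 closely, with a Pearson r of 0.931 across the 24 fRIP means, given as a description since the fRIPs share the libraries' scaling. It was higher in 2 fRIPs and lower in 13. Its 9 inputs spanned 160 to 254 FPKM with a median of 218. PABP libraries stood at 1106, 1047 and 1459 FPKM, 5.52-fold over input, and CHD4 libraries at 605, 379 and 566 FPKM, 2.35-fold over input.
Both groups lay above all inputs. EZH2 libraries held 53.7 and 57.1 FPKM, and HUR libraries 66.6, 53.4 and 57.8 FPKM, which was 3.83-fold and 3.59-fold under input with no overlap. Of the 31-base stretches of SNHG6-203 and SNHG6-205, the isoforms with the highest input levels, 33% and 29.1% also occur in the gene MCMDC2. The level of SNHG6 is uncertain to that extent.

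GAS5, named for its rise in growth-arrested cells, carries the most snoRNAs of the 10. It rose in PABP and CHD4 and fell in 5 fRIPs, of which 2 depended on the setting. The PCAF call was lost after centring (-0.48), against input set 1 alone (-0.96) and without PCAF replicate 2 (-0.99), and the IMP1 call after centring (-0.91). Inputs lay between 471 and 738 FPKM with a median of 535. PABP libraries stood at 2439, 2308 and 3531 FPKM and CHD4 libraries at 2132, 1437 and 1843 FPKM, with log2 fold changes of 2.29 ± 0.16 and 1.68 ± 0.16. Every one of these libraries exceeded every input. Libraries of HNRNPH1, a splicing regulator that binds G-rich RNA, held 179, 197 and 233 FPKM and HUR libraries 177, 174 and 243 FPKM, 2.73-fold and 2.83-fold under input.

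SNHG1 was called in few fRIPs, higher in 4, of which PHF8 depended on the reference, and lower in 1, and was the only host to rise with IMP1. The inputs spanned 233 to 443 FPKM with a median of 347. PABP libraries held 1058, 1171 and 1465 FPKM and CHD4 libraries 1242, 894 and 1465 FPKM, which was 3.65-fold and 3.52-fold over input. IMP1 libraries averaged 845 ± 91.2 FPKM (SD, n = 3), a log2 fold change of 1.33 ± 0.15. The call lower in HUR, at 152, 153 and 194 FPKM, sat at the threshold with a log2 fold change of -1.01 ± 0.15. Over 21 alternative settings the value of this call ran from -1.26 to -0.79. It was lost when any 1 of 7 libraries was left out, namely HUR replicates 1 and 2, replicates 1 and 2 of input set 2 and all replicates of input set 3. CTCF libraries, at 141, 243 and 192 FPKM, overlapped the inputs, with -0.83 ± 0.15 and no call.

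SNHG16 stood apart from the other box C/D hosts. It rose with ADAR and HUR and fell with HDAC1 and SUZ12. Input libraries ran from 50.5 over 56.7 to 75.9 FPKM. ADAR, the adenosine deaminase of double-stranded RNA, gave 173, 174 and 221 FPKM and HUR gave 215, 166 and 178 FPKM, all above every input and with log2 fold changes of 1.67 ± 0.19 and 1.65 ± 0.19. The ADAR value depended on scaling, since 26.6% of all genes were higher in that fRIP, and after centring of the libraries it was 0.69 and no longer called. HDAC1 libraries held 24.8, 23.2 and 31.2 FPKM and SUZ12 libraries 22.9, 22.7 and 32.7 FPKM, 2.18-fold and 2.22-fold under input.

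Among the box H/ACA hosts, SNHG8 had the widest range. Its fRIP means ran from 27.6 FPKM with HUR to 1405 FPKM with PABP, 51.0-fold. Input levels of SNHG8 spanned 153 to 303 FPKM with a median of 266. PABP libraries held 1167, 1279 and 1769 FPKM (log2 fold change 2.54 ± 0.19) and CHD4 libraries 689, 397 and 835 FPKM (1.37 ± 0.19).
HUR libraries held 23.8, 27.2 and 31.7 FPKM, so that the highest of them was under the lowest input, with a log2 fold change of -3.06 ± 0.19 (adjusted p = 2.87e-20). SUZ12 libraries held 59.6, 54.2 and 83.4 FPKM, with -1.85 ± 0.19. SNHG8 was lower in 9 fRIPs, but the input sets differed for it. Set 1 averaged 169 ± 15.4 FPKM (SD, n = 3), set 2 278 ± 28.1 and set 3 283 ± 18.4. Against the input set matched to each protein, the lower calls in CTCF, HDAC1, HNRNPU and LSD1 were lost and one in PCAF was gained.

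SNHG15 and SNHG7 were of lower abundance and leaned upward. SNHG15 rose in 6 fRIPs, namely CHD4, PABP, DNMT1, CBX3, CBP and PHF8, of which PHF8 was lost against the matched input set and after centring, and fell in 2. Against inputs of 37.6 to 57.6 FPKM with a median of 52.0, CHD4 libraries held 201, 151 and 204 FPKM and PABP libraries 150, 165 and 209 FPKM, 3.70-fold and 3.48-fold over input. All 6 libraries exceeded every input. HUR libraries held 20.2, 20.8 and 20.1 FPKM and IMP1 libraries 20.5, 14.2 and 21.0 FPKM, 2.33-fold and 2.59-fold under input and under every input library.

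SNHG7 rose in HNRNPH1, CBP, CHD4 and PABP and fell in IMP1 and HUR. Input libraries ran from 21.5 over 22.2 to 41.6 FPKM. HNRNPH1 libraries held 78.3, 65.3 and 96.1 FPKM and CBP libraries 79.5, 66.8 and 62.2 FPKM, with log2 fold changes of 1.64 ± 0.20 and 1.45 ± 0.20. CBP is a histone acetyltransferase. HUR libraries held 10.2, 10.1 and 9.92 FPKM and IMP1 libraries 13.3, 11.2 and 9.75 FPKM, with -1.21 ± 0.20 and -1.05 ± 0.20. The IMP1 call was lost after centring, at -0.59, and without IMP1 replicate 3 or replicate 3 of input set 2. The HNRNPH1 call was also lost after centring, at 0.91, in a fRIP where 24.5% of all genes were higher.

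SNHG3 was the only one of the 10 hosts called lower in CHD4. It was lower in 6 fRIPs in all and higher only in phospho-CBX3, the form of the heterochromatin protein HP1 gamma that is recognised by its phosphorylation. Input libraries ran from 287 over 481 to 590 FPKM. PCAF libraries held 94.1, 98.4 and 146 FPKM and CHD4 libraries 126, 119 and 143 FPKM, which was 3.97-fold and 3.42-fold under input with no overlap. The PABP libraries, at 226, 226 and 213 FPKM, also lay under every input without a call. Phospho-CBX3 libraries held 746, 895 and 1091 FPKM, with a log2 fold change of 1.02 ± 0.20. Over 21 alternative settings that value ran from 0.79 to 1.47, and the call was lost without any 1 replicate of input set 1 and without phospho-CBX3 replicate 3. CHD1 libraries at 696, 699 and 1100 FPKM came next, with 0.87 ± 0.20 and no call. Across the 24 fRIPs its Pearson correlation with the median of the other 9 hosts was 0.025 (Spearman 0.243), and that of SNHG16 was -0.165, where SNHG8, GAS5 and SNHG5 had 0.90, 0.854 and 0.826.

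SNHG12, the mixed host, rose in CHD4, PABP, CHD1, CBX3 and CBP and fell in EZH2, IMP1 and HUR. Its inputs ran from 48.1 over 53.7 to 142 FPKM, the last being 1 library of set 2. CHD4 libraries held 189, 168 and 233 FPKM (log2 fold change 1.66 ± 0.28) and PABP libraries 118, 139 and 200 FPKM (1.27 ± 0.28), of which 2 overlapped that input. HUR libraries held 11.6, 12.5 and 7.88 FPKM (-2.43 ± 0.28) and IMP1 libraries 21.5, 22.2 and 22.7 FPKM (-1.42 ± 0.28), all under every input. The PABP call was lost against input set 2 alone, at 0.82, and the IMP1 call after centring, at -0.96. In phospho-CBX3 the difference was 0.80 without a call, and 1.07 with one against the matched set. Paired by replicate number within input set 2, the difference in CHD1 was 0.62 and no longer called, and it was also lost without CHD1 replicate 3. The EZH2 call was lost in 7 of 20 alternative settings, over a range of -1.54 to -0.82, among them without that high input and without EZH2 replicate 2. Those in CBP and CBX3 were each lost in 3 of 21, with values down to 0.58 and 0.62, among them without CBP replicate 1, input set 1 replicate 1 or CBX3 replicate 3.

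**Figure D2:**
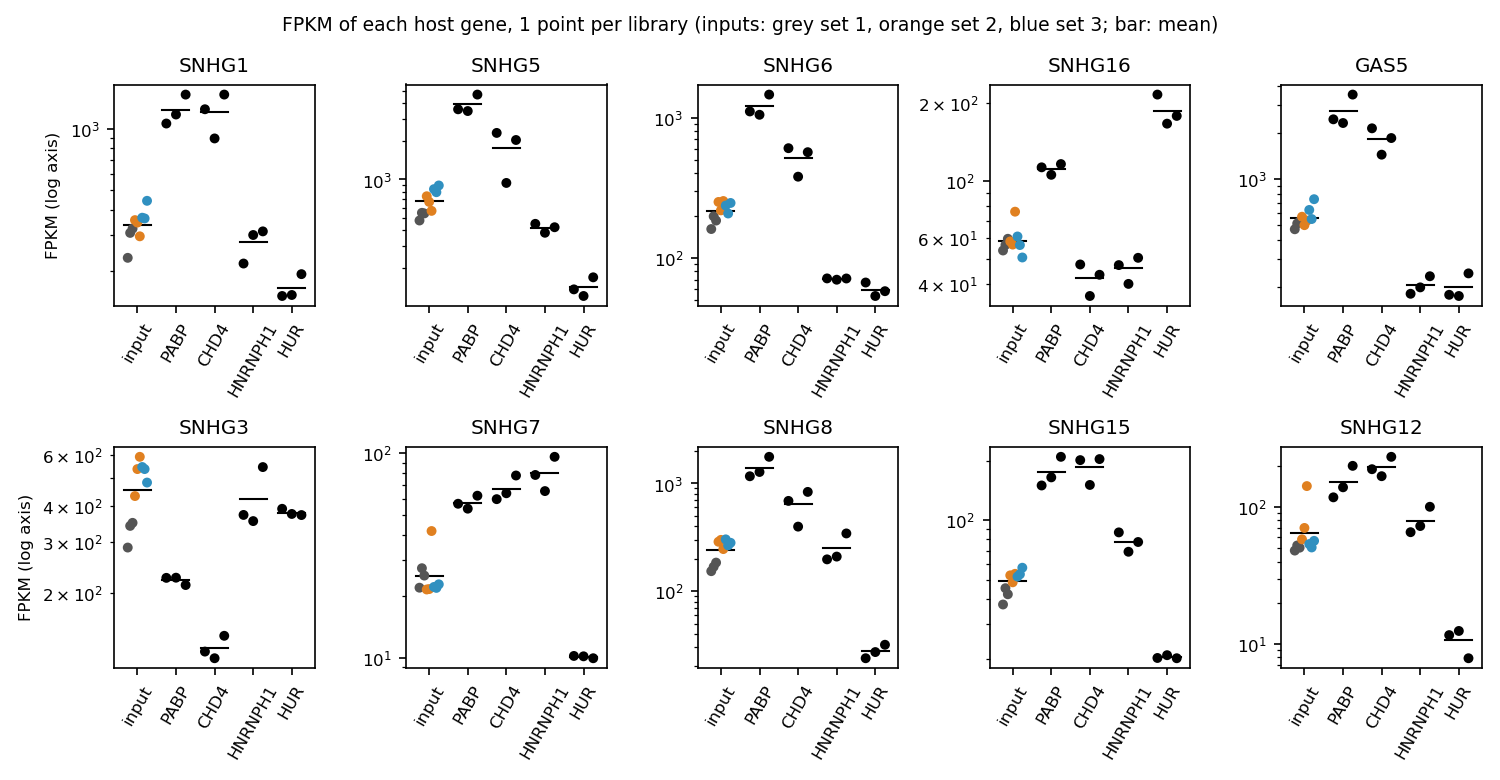
FPKM (log axis) of each host gene in the 9 inputs and in the PABP, CHD4, HNRNPH1 and HUR fRIPs, 1 point per library, with the mean as a bar. SNHG5, SNHG6 and SNHG8 are above all inputs in PABP and CHD4 and below all in HUR, whereas SNHG16 is above in HUR and SNHG3 is below in CHD4.

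Other hosts on lists compiled with earlier results of these data known were read the same way. Of 8 other noncoding hosts tested among 12 listed, 5 rose with PABP, where 11.1% of all genes did, and 4 with CHD4, where 2.91% did. ZFAS1, host of SNORD12 family snoRNAs, went from 209 ± 43.2 FPKM in input to 1315 ± 284 in PABP and 767 ± 222 in CHD4 (SD, n = 9, 3 and 3), with log2 fold changes of 2.65 ± 0.18 and 1.85 ± 0.18. SNHG9, EPB41L4A-AS1 and SNHG11 also rose with both, and DANCR rose with PABP by 3.86-fold and stood at -0.13 on the log2 scale with CHD4. With HUR, 5 of the 8 fell against 6.93% of all genes, ZFAS1 by 7.82-fold, and SNHG17 rose by 2.73-fold.

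Of 22 protein-coding hosts, 14 rose with PABP and 3 with CHD4, and none fell in either. Among the 14 were RPL21, which encodes a ribosomal protein, at a log2 fold change of 2.26 and EEF2, an elongation factor, at 1.34. The other 8 had differences between -0.89 and 0.35 and included NCL, which encodes nucleolin, HSPA8 and NOP56, a core protein of box C/D particles. After centring, 11 rather than 3 of the 22 were higher with CHD4, while the share of all genes went from 2.91% to 10.4%. Of 8 nonsense-mediated decay factors none rose with PABP or CHD4 and 2 fell in each, against the backgrounds of 14.7% and 9.79% lower. These counts depended on the reference, with 1 higher in CHD4 against the matched set, 1 higher in each fRIP after centring, and 1 rather than 2 lower in PABP in both settings. The most decay factors rose with SUZ12, 5 of 8, where 15.3% of genes rose.

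The genes outside the list whose 24 fRIP means were most like the median host profile by Pearson r were AC074183.4 (0.864), EPB41L4A-AS1 (0.850), C6orf48 (0.842), FAM195A (0.842) and RPL36 (0.826). EPB41L4A-AS1 and C6orf48 are snoRNA hosts themselves. Of the 31-base stretches of the leading SNHG7 isoform, SNHG7-202, 24.4% also occur in the gene of AC074183.4, so reads of these 2 cannot be fully told apart. Log2 fold changes of C6orf48 were 2.21 with PABP, 1.84 with CHD4 and -1.61 with HUR, and those of RPL36, a ribosomal protein gene, were 2.60, 0.57 and -2.76. Of 35 named snoRNAs within the 10 hosts, 1, SNORD87 of SNHG6, could be followed in the gene table here, and no library of 79 held it at 1 FPKM or more.

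Isoforms told more than genes. Of 113 isoforms of the 10 hosts, 111 passed the filter and 43 were annotated with a retained intron, in 7 of the hosts. Over the 24 fRIPs, 341 isoform combinations were higher and 422 lower, against 7.29% and 5.47% of all isoforms. Against the matched input set the counts were 275 and 318, where 6.1% and 4.93% of all isoforms were, and with each library centred they were 321 and 395, where 7.4% and 4.95% were. In PABP the classes went opposite ways. Of 69 isoforms of the lncRNA class, which carries no retained intron label, 41 were higher and 8 lower, and of 42 with a retained intron 3 were higher and 20 lower. All isoforms of the table had 9.69% higher and 16.1% lower in PABP. By class, 6.97% of all lncRNA isoforms were higher, and 34.3% of all retained intron isoforms were lower.

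CHD4 gave the same split, with 33 of 69 lncRNA isoforms higher and 7 lower, and 0 of 42 retained intron isoforms higher and 18 lower. There 4.17% of all isoforms were higher and 12% lower, and 27% of all retained intron isoforms were lower. In HNRNPH1, 16 lncRNA isoforms of the hosts were higher and 29 lower, against 20.8% and 11% of all isoforms and 27.5% and 3.05% of all lncRNA isoforms. Of its 42 retained intron isoforms 10 were higher and 6 lower, against 39.9% and 2.61% of all retained intron isoforms, a smaller share higher and a larger share lower than the class as a whole. In PHF8, 27 of 42 retained intron isoforms were higher and 0 lower, against 7.46% of all isoforms and 19.1% of all retained intron isoforms higher. In CBX3 the count was 24 of 42 higher, against 13.1% and 32.7%, and in SUZ12 22 of 42, against 21.3% and 39.8%.

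The more of its span an isoform had spliced out, the higher it stood in PABP and CHD4. Spearman's rho between the share of the genomic span removed by splicing and the log2 fold change was 0.53 in PABP and 0.518 in CHD4 over the 111 isoforms, and -0.54 in HNRNPH1. Over 97849 isoforms of all genes it was 0.0949, 0.109 and -0.249. The isoforms share exons and reads within a host and are not independent, so these are descriptions.

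**Figure D3:**
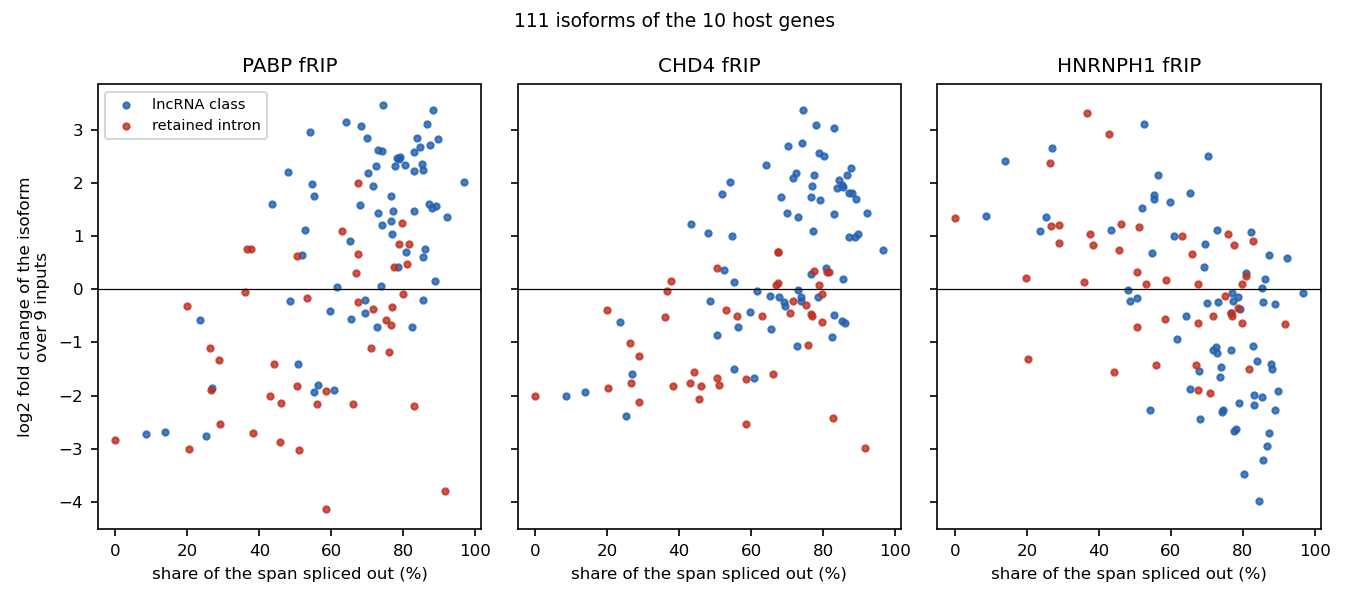
Log2 fold change over input of 111 host isoforms against the share of their genomic span that is spliced out, in 3 fRIPs, coloured by annotated class. Isoforms with most of their span removed tend to stand high in PABP and CHD4 and low in HNRNPH1, with Spearman's rho at 0.53, 0.518 and -0.54, and SNHG3-203 is an exception in PABP and CHD4.

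The same pattern held within single hosts when the FPKM of all retained intron isoforms was taken as a share of the host's total. In input this retained intron share was 0.728% ± 0.355 for SNHG5 (SD, n = 9), 3.49% ± 1.63 for SNHG6, 12.3% ± 2.21 for SNHG16, 17.4% ± 6.30 for SNHG1 and 19.5% ± 7.62 for GAS5. It was 68.1% ± 5.79 for SNHG12 and 87.4% ± 3.10 for SNHG3. Each of 7 hosts was tested in each of 24 fRIPs with a two-sided exact permutation test over libraries. The 168 tests were adjusted together, and 77 were higher and 35 lower at an adjusted p under 0.05. They used all 9 inputs without pairing, also for CHD1, NUP98, PCAF and WDR5, whose replicates were taken as paired with input set 2. With 3 against 9 libraries the smallest p such a test allows is 0.00455, which after adjustment became 0.00909. The same test was run on every gene with retained intron isoforms whose summed FPKM was above 1 in each library of the comparison, 6222 to 6403 genes a fRIP, with adjustment over all of them. There 20.1% of combinations were higher and 16.7% lower, and of the 168 host combinations 74 were higher and 32 lower.

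In PABP and CHD4 the share was lower in all 7 hosts, although the SNHG5 libraries of CHD4 overlapped the inputs and did not pass with adjustment over all genes. Of all genes, 60.9% had a lower share in PABP and 5.74% a higher one, and 54% a lower share in CHD4 and 2.66% a higher one, so most genes went the same way there. In PABP libraries GAS5 had a share of 2.59% to 4.20%, SNHG1 of 0.698% to 1.02% and SNHG12 of 17.2% to 24.4%, each under every input (exact permutation test, adjusted p = 0.00909 for each). In CHD4 libraries the means were 3.52% ± 0.929 for GAS5 (SD, n = 3), 1.65% ± 0.850 for SNHG1 and 16.1% ± 1.49 for SNHG12. Median differences over the 7 hosts were -15.9 points in PABP and -15.7 in CHD4, or -9.82 and -16.6 against the matched input set.

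The share went up in all 7 hosts with CBP and SUZ12, by a median of 15.5 and 13.8 points, and in 6 of 7 with CBX3, PHF8, HNRNPH1 and phospho-CBX3. With adjustment over all genes CBX3 had 5. Of all genes the share was higher for 34.9% in CBP, 55.2% in SUZ12, 50.3% in CBX3, 42.4% in PHF8 and 63.2% in HNRNPH1, but for 8.79% in phospho-CBX3. SNHG3 was the 1 host of 7 with a lower share in HNRNPH1, where 2.48% of all genes were lower, and in ADAR, where 4.46% were lower. GAS5 reached 68.8% ± 3.81 in SUZ12, 68.2% ± 5.44 in PHF8 and 64.5% ± 2.56 in HNRNPH1 (SD, n = 3 each), so that in these fRIPs more GAS5 signal was assigned to the retained intron class than to the lncRNA class. The GAS5 isoforms of the first class are themselves spliced at other introns, such as GAS5-206 with 11 exons and 81.0% of its span spliced out. SNHG6 reached 32.3% ± 4.89 in SUZ12. With IMP1 the share of SNHG1 fell to 3.10% ± 0.460, in the libraries where the SNHG1 gene total rose. The shares of SNHG3 and SNHG16 fell there as well, to 66.0% ± 7.05 and 1.2% ± 0.53. That of GAS5 was 18.6% ± 5.96, overlapping the inputs. Of all genes, 46.1% had a lower share in IMP1 and 1.21% a higher one.

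**Figure D4:**
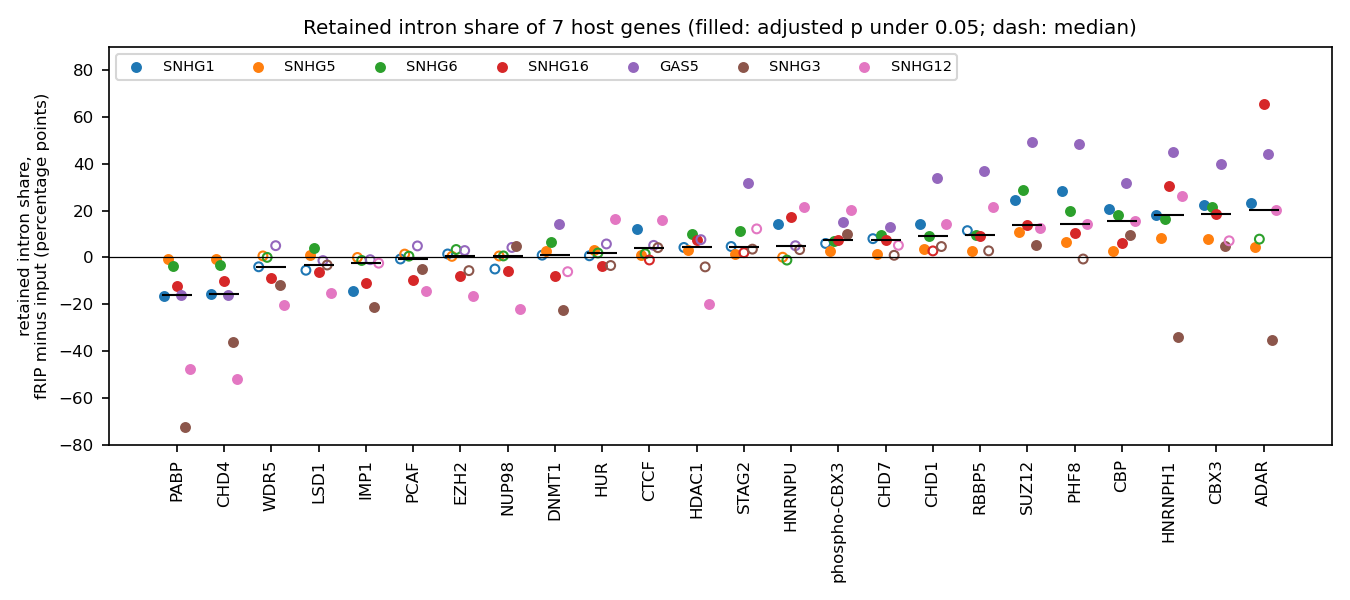
Retained intron share of 7 host genes in each fRIP minus the mean of 9 inputs, in percentage points. Filled points passed an exact permutation test at an adjusted p under 0.05 and the dash is the median, at -15.9 for PABP, -15.7 for CHD4 and 20.4 for ADAR. SNHG3 lies below 0 in ADAR and HNRNPH1, where the other hosts lie above.

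SNHG3 is the host in which isoforms change the reading of the gene total. In input its FPKM came mostly from SNHG3-203, at 292 ± 97.3 FPKM (SD, n = 9), and SNHG3-202, at 108 ± 19.8, both annotated with a retained intron, and less from the lncRNA isoform SNHG3-201, at 55.2 ± 9.15. In PABP libraries SNHG3-201 stood at 190, 182 and 193 FPKM, 3.40-fold over input, while SNHG3-203 stood at 22.7, 32.0 and 8.80 FPKM and fell by 3.81 on the log2 scale. The gene total, uncalled and under input, was thus a sum of a rise and a fall.
In CHD4 libraries SNHG3-201 averaged 64.0 ± 25.5 FPKM and was not called, and SNHG3-203 averaged 36.2 ± 14.9, with a log2 fold change of -2.98. In ADAR and HNRNPH1 SNHG3-201 averaged 244 ± 79.2 and 198 ± 68.3 FPKM, and the retained intron share fell from 87.4% to 52.1% and 53.3%. SNHG3-203 has 185 bases in 2 exons, so that each fragment weighs heavily in its FPKM, and 91.7% of its span is spliced out in spite of its class. It shares 29.7% of its 31-base stretches with RCC1, the neighbouring gene.

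SNHG16 was the reverse case. Its isoform with the highest input level, SNHG16-206, stood at 28.1 ± 3.09 FPKM in input (SD, n = 9), and in HUR libraries at 111, 73.3 and 86.8 FPKM, higher by 1.64 on the log2 scale. In ADAR libraries it stood at 17.2, 10.3 and 16.9 FPKM, below input without a call. Of its 31-base stretches, 61.7% also occur in another annotated gene, so its level is uncertain. The rise of SNHG16 with ADAR came with SNHG16-205, a single unspliced exon of 2665 bases named after its values were seen. Of its 31-base stretches, 9.34% also occur in other annotated genes. It had 7.25 ± 1.80 FPKM in input and 129, 140 and 173 FPKM in the ADAR libraries, a log2 fold change of 4.19. The retained intron share of SNHG16 in ADAR was 77.7% ± 3.23 (SD, n = 3), and in PABP it was 0.127% ± 0.0697. SNHG16 was thus higher in both HUR and ADAR, with SNHG16-206 leading in the first and SNHG16-205 in the second.

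**Figure D5:**
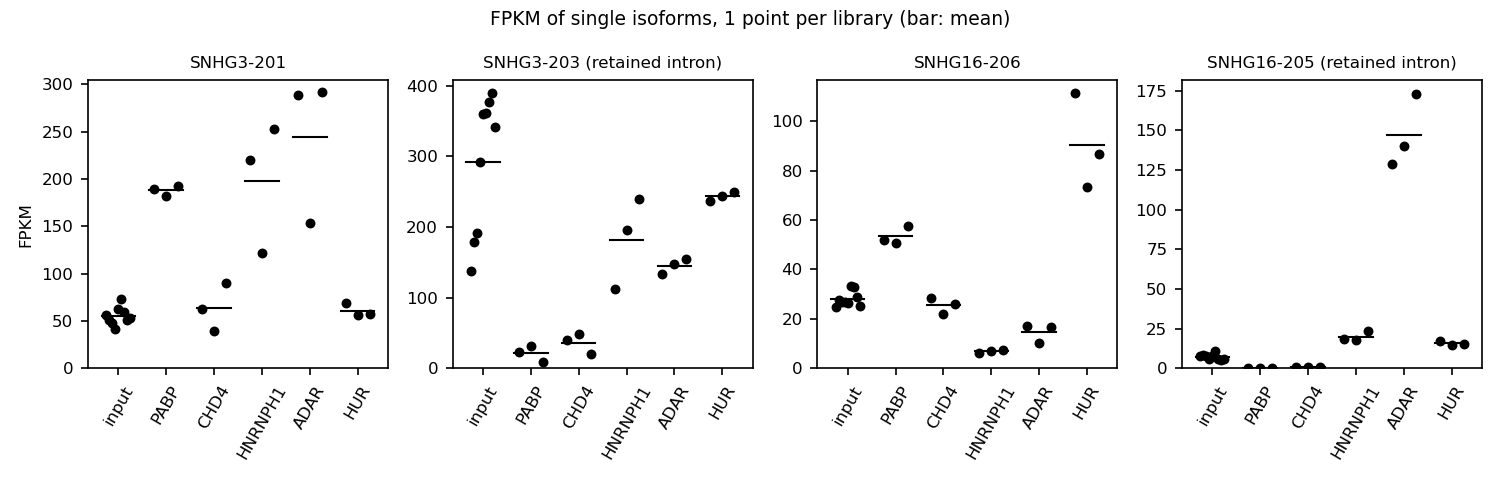
FPKM of 2 SNHG3 and 2 SNHG16 isoforms in the 9 inputs and 5 fRIPs, 1 point per library, with the mean as a bar. SNHG3-201 is higher in PABP, HNRNPH1 and ADAR while SNHG3-203 falls to 21.2 FPKM in PABP, and SNHG16-205 reaches 147 FPKM in ADAR while SNHG16-206 is highest in HUR.

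SNHG7, SNHG8 and SNHG15 have no isoform labelled with a retained intron, but a long isoform of 2 exons in SNHG15 and one in SNHG7 moved opposite to more spliced isoforms of the same gene. SNHG15-202, with 13.8% of its span spliced out, went from 9.63 ± 1.53 FPKM in input (SD, n = 9) to 55.6 ± 2.66 in HNRNPH1 and 0.630 ± 0.0647 in PABP (SD, n = 3 each). SNHG15-205, with 80.4% spliced out, went from 12.9 ± 4.67 to 0.201 ± 0.345 and 66.5 ± 15.2 in the same fRIPs. SNHG7-204 and SNHG7-202 showed the same crossing, SNHG7-204 with log2 fold changes of 2.67 in HNRNPH1 and -1.85 in PABP and SNHG7-202 with -2.67 and 2.32. All 8 of these differences were called. In the HNRNPH1 fRIP the gene total of SNHG7 rose, so it rose with its least spliced isoform.

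Of the spliced isoforms of other hosts, values are given for 1 isoform each of GAS5, SNHG12 and SNHG5. GAS5-221, with 84.6% of its span spliced out, averaged 183 ± 64.6 FPKM in input (SD, n = 9), 736 ± 124 in CHD4 and 10.7 ± 5.09 in HNRNPH1 (SD, n = 3 each). SNHG12-207 averaged 103 ± 25.1 FPKM in CHD4 and 73.9 ± 16.5 in PABP, with log2 fold changes of 3.05 and 2.59. SNHG5-202, the isoform behind 92.1% of SNHG5 in input, had log2 fold changes of 2.62 in PABP, 1.35 in CHD4 and -2.37 in HUR, and it shares 37.8% of its 31-base stretches with another annotated gene. FPKM of isoforms of 1 gene are estimates from shared reads, and how the assignment of reads affects the shares was not tested.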

How the data were processed

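K562 fRIP-seq libraries (70 fRIP and 9 input) were analysed as gene and isoform tables of FPKM, which the authors made with TopHat and Cuffdiff 2 on hg19 with GENCODE v18 and deposited per library. The submitters' processing notes also name CASAVA 1.4 and Cuffnorm. Libraries were made with a TruSeq kit after Ribo-Zero depletion and read as pairs of 31 bases. The study states that replicates came from different dates and lysates. Whether the strand was used in counting is not given in the sources used here, so that GAS5 and its antisense gene GAS5-AS1 cannot be told apart where they overlap. The deposited comparison tables also hold the authors' fold changes, p-values and calls, which were not used. Of these tables only the listed input FPKM was read, to find the input set nearest to each protein.

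Features were tested where 2 or more libraries reached 1 FPKM (25442 of 48453 genes, 104506 of 185661 isoforms). The 79 libraries entered a single limma-trend fit on log2(FPKM + 1), with 1 coefficient per protein, 1 for the 9 inputs together, and Benjamini-Hochberg adjustment within each comparison. This scale understates changes of low genes. FPKM replaced reads, so no count model was used as the main test. Depth was estimated from the FPKM step of 1 fragment in 4441 genes with 1 isoform, where a median of 98.4% of low values lay within 0.2 of a whole number. The retained intron share was compared by a two-sided exact permutation test, with a smallest p of 0.00455 for 3 against 9 libraries and 0.0182 for 2 against 9, adjusted over the host combinations as planned and, in addition, over all genes with such isoforms. Isoform classes came from GENCODE v44 lifted to GRCh37, in which all 113 host isoforms were matched by identifier, 15 with the same version. The analysis was tested on simulated data. R 4.3.3, limma 3.58.1, data.table version 1.17.8, Python 3.11.15, pandas 2.3.3, SciPy 1.17.1 and matplotlib 3.10.9 were used.

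The members and gene lists were chosen with earlier results of these data known. Named were the 10 hosts, the 2 highest and 2 lowest fRIPs of each, up to 3 isoforms with the highest input level of each, the 5 genes most like the median host profile, and the lists; SNHG16-205 was added after its values were seen. Replicate numbers were checked for pairing with the matched input set. Deviations of same-numbered libraries correlated over 0.1 in every pair for CHD1, NUP98, PCAF and WDR5 (0.129 to 0.599), all matched to input set 2. These were taken as paired, from the data and not from the labels. RBBP5, also matched to input set 2, had a lowest correlation of 0.0877 and was not taken as paired. Its libraries still entered the fit with a replicate block within input set 2. Alternatives were the pseudocount of 0.1 FPKM, no filter, centring, single and matched input sets, replicate blocks, fits of 1 protein and its inputs, and leaving out each library.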

Additional observations from a re-analysis of the deposited data

Results flagged for a closer look

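In 3 hosts the same input library, replicate 3 of set 2, stood apart from the other 8. SNHG12 was at 142 FPKM there and at 70.4 in the next highest input, a gap of 0.763 of the whole range of the 9 inputs. SNHG7 was at 41.6 FPKM against 27.4, a gap of 0.709, and SNHG16 at 75.9 against 60.9, a gap of 0.591. In the same library the retained intron share of GAS5 was 37.2%, against 22.8% in the next, a gap of 0.575, and that of SNHG1 was its highest input value, at 30.7%. That of SNHG6 was 7.03% in replicate 1 of input set 1 and 4.44% in the next, a gap of 0.497. The critical gap for 9 samples is 0.493, and chance flags about 1 in 20 groups. Among the fRIPs matched to input set 2, replicate 3 also held the most SNHG12. It stood at 231 FPKM in CHD1, 221 in NUP98, 77.2 in PCAF, 142 in RBBP5 and 113 in WDR5. The next libraries held 111, 108, 31.9, 69.8 and 49.2. The GAS5 share of these fRIPs was highest there too, at 30.3% to 72.7%. In other fRIPs replicate 3 held the most SNHG12 in some, as in CHD4 (233 against 189), but not in others, as in PHF8 (69.7 against 79.4). Why these libraries differ was not tested.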

How the results depend on the processing

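No called value reversed under any alternative run. Of 240 combinations, 30 were higher and 59 lower. The counts were 30 and 59 with a pseudocount of 0.1 FPKM and with no filter, 38 and 40 against input set 1 alone, 24 and 70 against set 2 and 28 and 73 against set 3. With the replicate number as a replicate block they were 30 and 58, and with a replicate block within input set 2, added after seeing the data, 29 and 63. Leaving out 1 library gave 28 to 32 higher and 57 to 65 lower. Of the 89 calls, 16 were lost after centring, 19 against set 1, 14 against the matched set, and 6 each against sets 2 and 3. The isoform count of 341 higher was 210 against input set 2 alone, and the cause was not tested. Without 1 library it ran from 325 to 367, and that of 422 lower from 400 to 437. With the replicate block the isoform counts were 346 and 425. Against the matched input set 12 of 168 retained intron shares moved by more than the replicate spread. The ADAR libraries, at 1996300 to 2383500 fragments, were the shallowest, and without that fRIP 29 combinations were higher and 56 lower, a choice made after seeing the data.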
